A study of Mus musculus with 19 samples.

Results

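The cytosolic ribosomal protein transcripts were followed in the quadriceps muscle of a mouse model of spinal and bulbar muscular atrophy (SBMA), on 19 one-colour Agilent arrays. Members were taken by name: every non-control probe whose gene name had the form of Rpl or Rps with a number (and at most 1 of the letters a, x, y or l after it), or was Rplp0, Rplp1 or Rplp2. This gave 78 genes measured by 181 probes, of 30214 genes and 39429 probes on the array. All 78 genes and 180 of the 181 probes were well above background on at least 4 arrays and entered the tests, as did 24741 genes and 32026 probes overall. Of the 78 genes, 48 encode proteins of the large subunit and 30 of the small subunit.

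All mice were males on the C57Bl6J background, and all muscles were taken at 180 days of age. Wild-type mice (CTR) were compared with AR113Q knock-in mice, which carry an androgen receptor allele with an expanded polyglutamine tract. The allele is present in every tissue, so muscle and other cells carry it alike. Each genotype was kept on normal chow (NCD) or, from 40 days of age, on a high-fat diet (HFD). The groups were CTR-NCD (n = 5 arrays), AR113Q-NCD (n = 5), CTR-HFD (n = 4) and AR113Q-HFD (n = 5). The labels do not say whether each array stands for 1 mouse, so the p-values measure the spread between these arrays. The tissue was whole muscle, in which fewer cells of a type and less RNA per cell cannot be told apart.

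Each ribosome is built from a small subunit, which reads the mRNA, and a large subunit, which joins amino acids. Ribosomal protein mRNAs share a pyrimidine tract at their 5′ end through which mTORC1, the nutrient-sensing kinase complex, controls their translation. The protein of 1 member, Rps6, is itself phosphorylated downstream of mTORC1 by S6 kinase. Striated muscle differs from other tissues in making Rpl3l, a paralog that takes the place of Rpl3 near the site of peptide bond formation.

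Probes of 5 members are shown, each of a gene whose single results are described further on. Rpl3l and Rpl3 encode closely related proteins, and the capitals mark the stretch of 27 bases over which both probes can be aligned, with 20 bases identical. The remaining probes are in lower case throughout. Coordinates are those of the files (mm9), 5′ to 3′ along the transcript. The Rpl3l probe lies at chr17:24872413-24872681 on the plus strand and the Rpl3 probe, the dimmer of the 2 tested for that gene, at chr15:79908489-79908772 on the minus strand. The Rpl3 levels and ratios given further on rest on its brighter probe, which is not shown, and the values of the printed probe stand beside them. The Rpl10 probe lies at chrX:71518307-71518366 on the plus strand, the Rps25 probe at chr9:44216951-44218094 on the plus strand and the Rps26 probe at chr10:128062300-128062359 on the minus strand. Intervals longer than the 60 bases of a probe are given by the files for probes that cross an intron. Each of these probes can be read in at least 1 frame without a stop codon.
Rpl3l: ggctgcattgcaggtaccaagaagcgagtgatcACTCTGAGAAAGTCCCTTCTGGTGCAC
Rpl3: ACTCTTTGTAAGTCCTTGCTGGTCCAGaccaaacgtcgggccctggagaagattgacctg
Rpl10: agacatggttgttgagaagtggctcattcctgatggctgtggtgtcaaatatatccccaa
Rps25: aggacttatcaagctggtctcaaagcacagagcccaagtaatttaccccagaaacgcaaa
Rps26: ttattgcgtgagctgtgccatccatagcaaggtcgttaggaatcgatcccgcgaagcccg

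The family was bright on every array. Each gene was read by its brightest tested probe, and levels are log2 signal minus the 75th percentile of the array unless stated. By this measure 75 of the 78 members lay in the brightest 10% of genes, and the median member stood at the 98.2 percentile of signal. The 3 members outside it were Rpl10l at the 16.0 percentile, Rpl39l at 38.3 and Rps21 at 52.0, the first 2 of which are retrogene copies known from testis. The Rpl10l probe was well above background on 14 of the 19 arrays. Probe brightness depends on the probe as well as on the transcript, so these ranks are not amounts of mRNA. Before scaling, the median member signal was between 15.93 and 16.62 on the log2 scale, and no spot was marked as saturated.

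The direction of the family as a whole depended on how the arrays were scaled. Scaled by the 75th percentile, the median log2 fold change of the 78 members was -0.04 in AR113Q-NCD against CTR-NCD and -0.06 in AR113Q-HFD against CTR-HFD. The medians over all genes were -0.06 and -0.08. After quantile normalization, which gives every array the same distribution of signals, the same medians were 0.08 and 0.14, against 0.01 and -0.01 over all genes. The brightest 10% of all genes (2475 genes) moved in the same way, from -0.07 and -0.13 to 0.04 and 0.03. The 75th percentile itself was higher in AR113Q arrays, at 9.65 to 10.05 (NCD) and 9.86 to 10.18 (HFD), than in CTR arrays, at 9.52 to 9.75 and 9.51 to 9.86, with some overlap between genotypes. Its part in the family's direction was not tested.

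Per array, the level of the median member overlapped between genotypes under the percentile scaling. It was 6.38, 6.47, 6.50, 6.54 and 6.65 in CTR-NCD and 6.34, 6.36, 6.46, 6.47 and 6.54 in AR113Q-NCD. In the HFD groups it was 6.40, 6.47, 6.56 and 6.56 in CTR and 6.39, 6.41, 6.44, 6.48 and 6.58 in AR113Q. All 4 groups thus shared a range narrower than that of the array percentile. Quantile-normalized levels also overlapped in NCD, at 6.39 to 6.50 in CTR and 6.37 to 6.58 in AR113Q. In HFD they did not, as every CTR array was at 6.48 or lower (from 6.32) and every AR113Q array at 6.51 or higher (up to 6.62).

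**Figure D1:**
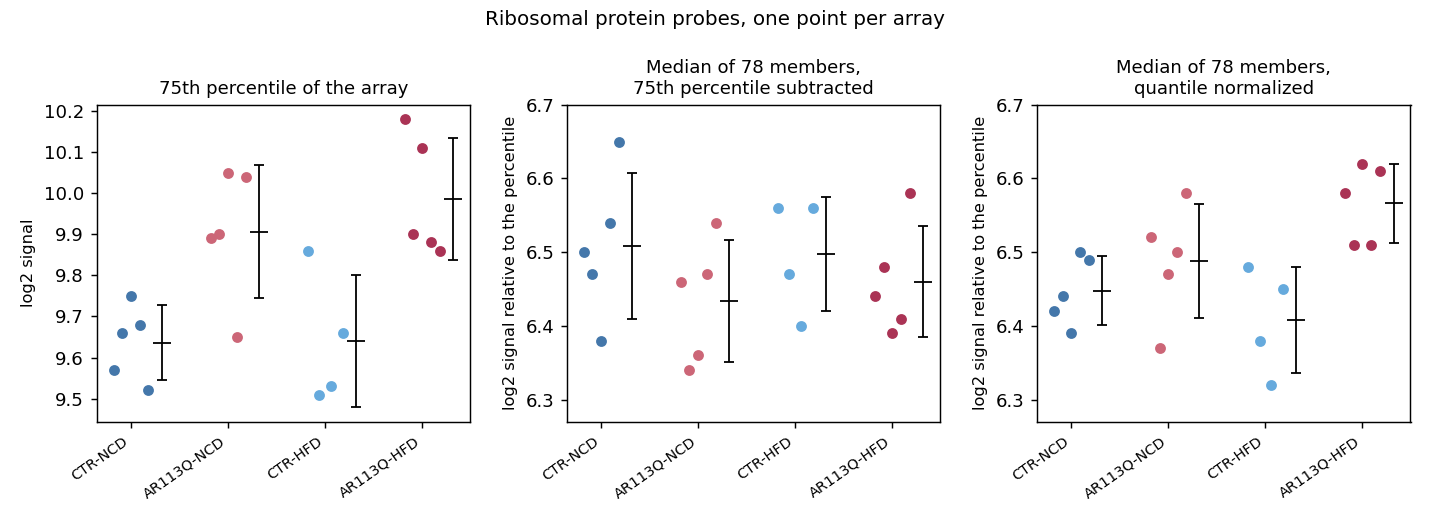
The 75th percentile of each array (left, log2 signal) and the median of the 78 ribosomal protein genes after subtraction of that percentile (middle) or quantile normalization (right), both as log2 signal relative to the percentile. Points are arrays in 4 groups and bars are the mean ± SD. The AR113Q arrays reach a higher percentile, up to 10.18, and the family lies apart between CTR-HFD and AR113Q-HFD in the right panel, where its highest CTR-HFD array is at 6.48 and its lowest AR113Q-HFD array at 6.51.

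Calls for single members followed the scaling. A gene was called at an adjusted p under 0.05 (limma, Benjamini-Hochberg over all 32026 probes tested). With the percentile scaling, 1 member was called higher and 4 lower in AR113Q-NCD against CTR-NCD, where 8.31% of all genes tested were called higher and 9.04% lower. In AR113Q-HFD against CTR-HFD no member was called higher and 5 were called lower, against 7.74% and 10.2% of all genes, while 20 members had an unadjusted p under 0.05. The count of members called higher was at most 1 of 78 within a diet. Averaged over both diets, 2 members were called higher and 15 lower, against 13.0% and 16.0% of all genes.

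After quantile normalization 13 members were called higher and 1 lower in AR113Q-NCD against CTR-NCD, against 10.1% and 8.24% of all genes. In AR113Q-HFD against CTR-HFD 31 were called higher and none lower, where the background was 10.3% and 7.97%. Averaged over both diets the counts were 40 higher and 1 lower, with 16.9% and 14.0% of all genes. The count of members called higher in HFD thus went from 0 to 31 of 78 with the choice of scaling. With the median of each array subtracted in place of the percentile, no member was called within either diet, and with normexp background correction none was called in any comparison. The share of all genes called in these fits is not given, so their counts cannot be read as a result about the family.

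**Figure D2:**
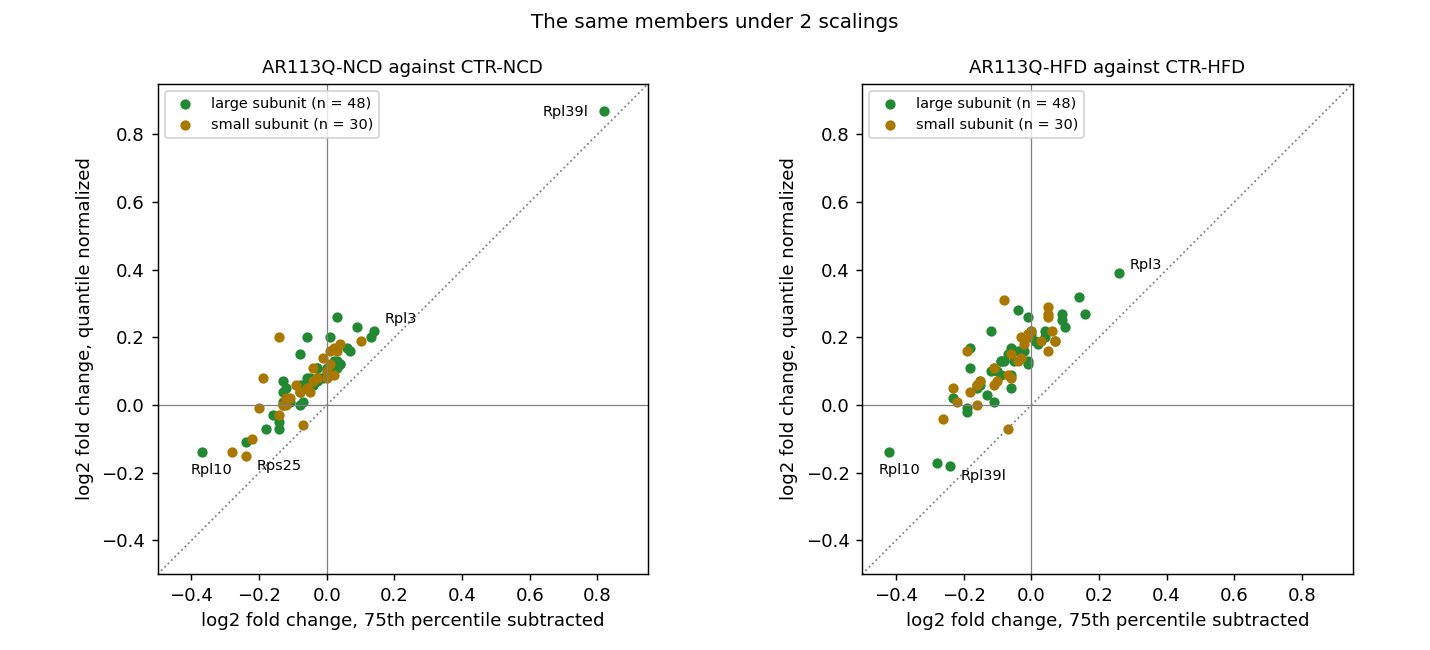
Log2 fold change of each ribosomal protein gene with the 75th percentile subtracted (horizontal axis) and after quantile normalization (vertical axis), for the genotype comparison in NCD (left) and HFD (right). Points are genes, green for the large and ochre for the small subunit, the dotted line marks equal values, and nearly all points lie on or above that line, with Rpl10 at -0.37 and -0.14 in NCD.

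Members of both subunits were called. Averaged over both diets and with the percentile scaling, the large subunit had 2 genes called higher and 8 lower of 48, with a median log2 fold change of -0.03. The small subunit had none higher and 7 lower of 30, with a median of -0.05. Of all genes, 13.0% were called higher and 16.0% lower. After quantile normalization the counts were 25 higher and 1 lower in the large subunit and 15 higher and none lower in the small. The median was 0.12 in each, and 16.9% of all genes were called higher and 14.0% lower. The difference between the subunits was not tested. On the percentile scale the median small-subunit gene had levels of 6.52 to 6.80 in CTR-NCD and 6.38 to 6.59 in AR113Q-NCD, which overlapped. In HFD it was at 6.64 to 6.69 in CTR and 6.43 to 6.62 in AR113Q, which did not overlap. The median large-subunit gene overlapped between genotypes in both diets, within 6.19 to 6.52. The HFD gap in the small subunit was one between medians of levels. The median log2 fold change of its 30 genes in HFD was -0.06, with 2 called lower and none higher, against 10.2% and 7.74% of all genes. After quantile normalization that median was 0.14, with 12 called higher and none lower, against 10.3% and 7.97% of all genes.

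Most members varied together from array to array. Over the 19 arrays, 57 of 78 members had a correlation above 0.5 with the median of the other members, and the median correlation was 0.66. This describes signals on shared arrays, where brightness and scaling are common to all probes. Rpl6, a large-subunit protein, followed the family most closely (0.91), and its own genotype difference was -0.04 in NCD and -0.09 in HFD (adjusted p = 0.78 and 0.53, limma). Rpl39l followed it least (-0.48), and Rpl3 was also apart (-0.11).

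Rpl10 fell in AR113Q muscle on either diet when scaled by the percentile. Its protein joins the large subunit late in assembly, in the cytoplasm, and the gene is on the X chromosome. The levels were 7.92, 7.72, 7.72, 7.95 and 7.92 in CTR-NCD and 7.43, 7.41, 7.35, 7.65 and 7.53 in AR113Q-NCD. In HFD they were 7.98, 7.93, 7.72 and 8.02 in CTR and 7.47, 7.48, 7.38, 7.50 and 7.61 in AR113Q. Every AR113Q array was below every CTR array within its diet. The log2 fold change was -0.37 (SE 0.0771, adjusted p = 0.0027, limma) in NCD and -0.42 (SE 0.0817, adjusted p = 0.0016) in HFD, and -0.40 averaged over both diets (adjusted p = 4.1e-05).

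The call on Rpl10 weakened with the scaling. Quantile normalization left -0.14 in each diet (adjusted p = 0.20 and 0.22, limma) and -0.14 averaged over both (adjusted p = 0.046). The other 2 Rpl10 probes, further along the same transcript, were called under both scalings. They gave -0.40 and -0.40 in NCD and -0.49 and -0.51 in HFD with the percentile, and -0.23 and -0.26, then -0.26 and -0.29, after quantile normalization. Read relative to the median of the family on the same array, Rpl10 was lower by a log2 difference of -0.30 in NCD (adjusted p = 0.0015, limma) and -0.38 in HFD (adjusted p = 0.00034). On arrays of the same slide the AR113Q level was below the CTR level on 5 of 5 slides in NCD (-0.49 to -0.30) and on 4 of 4 in HFD (-0.51 to -0.34) with the percentile. After quantile normalization it was below on 5 of 5 (-0.21 to -0.05) and on 3 of 4 (-0.27 to 0.11). Its paralog Rpl10l was near background, at -0.24 and -0.11 (adjusted p = 0.68 and 0.86, limma).

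Rpl3l, the striated muscle form, and Rpl3, its ubiquitous partner, changed in opposite directions in the average over diets on the percentile scale. The Rpl3l levels were 6.52, 6.45, 6.50, 6.46 and 6.69 in CTR-NCD and 6.39, 6.32, 6.31, 6.33 and 6.39 in AR113Q-NCD, which did not overlap. In HFD they were 6.43, 6.39, 6.38 and 6.53 in CTR and 6.18, 6.41, 6.17, 6.33 and 6.12 in AR113Q, which overlapped by 1 array. The log2 fold changes were -0.18 in NCD (SE 0.0646, adjusted p = 0.074, limma) and -0.19 in HFD (SE 0.0685, adjusted p = 0.064), and neither was called. The average over both diets was called, at -0.18 (adjusted p = 0.0065, limma). In AR113Q-HFD against CTR-NCD it was -0.28 (adjusted p = 0.0041). After quantile normalization the average was -0.04 (adjusted p = 0.54), so the call rested on the scaling.

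Rpl3 levels were 4.27, 4.46, 4.26, 4.35 and 4.09 in CTR-NCD and 4.36, 4.36, 4.42, 4.46 and 4.52 in AR113Q-NCD. In HFD they were 4.35, 4.31, 4.39 and 4.29 in CTR and 4.71, 4.39, 4.57, 4.37 and 4.90 in AR113Q. The genotypes overlapped in both diets, and the AR113Q-HFD arrays were the most spread. The log2 fold change was 0.14 in NCD (adjusted p = 0.38, limma) and 0.26 in HFD (adjusted p = 0.081), and it was called as the average, at 0.20 (adjusted p = 0.035), and in AR113Q-HFD against CTR-NCD, at 0.30 (adjusted p = 0.026). Quantile normalization gave 0.22 (adjusted p = 0.15), 0.39 (adjusted p = 0.018) and, as the average, 0.30 (adjusted p = 0.0041). The second Rpl3 probe, shown above, gave 0.19 (adjusted p = 0.21) and 0.38 (adjusted p = 0.012) with the percentile. The averaged Rpl3 call held in 8 of 19 fits that each left out 1 array, and that of Rpl3l in all 19.

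**Figure D3:**
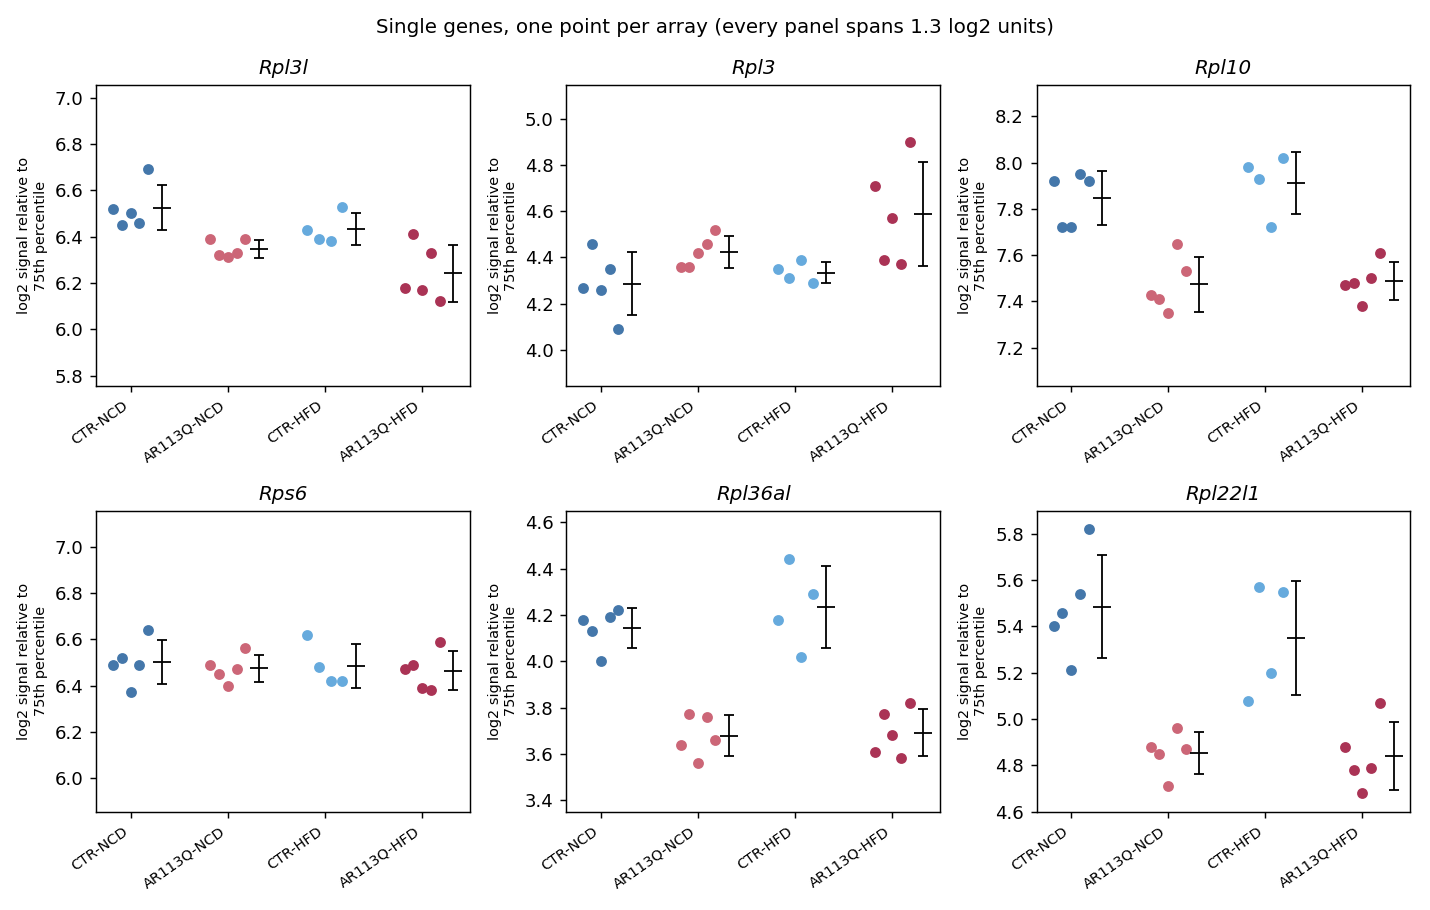
Log2 signal relative to the 75th percentile of the array for 6 genes, 1 panel each, with axes of equal span. Points are arrays of the 4 groups and bars are the mean ± SD. Rpl10, Rpl36al and Rpl22l1 lie lower in both AR113Q groups, Rpl3l and Rpl3 shift by smaller amounts in opposite directions, and Rps6 lies within 6.37 to 6.64 in all groups.

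The ratio of a paralog to its partner on the same array was compared for 7 pairs in 2 diets, with exact 2-sided permutation tests adjusted over these 14 tests. The comparison was added after the data were seen. On NCD the log2 ratio of Rpl3l to Rpl3 ran from 1.99 to 2.59 in CTR and from 1.87 to 2.03 in AR113Q, and on HFD from 1.99 to 2.24 and from 1.21 to 2.01. It changed by -0.31 in NCD (SE 0.106, exact p = 0.0159, adjusted p = 0.0445) and by -0.45 in HFD (SE 0.158, exact p = 0.0556, adjusted p = 0.111). The NCD change passed the threshold and the HFD change did not, and the difference between the diets was not tested. After quantile normalization the changes were -0.29 and -0.40. Other ratios moved more with the scaling: in HFD that of Rpl7l1 to Rpl7 went from 0.18 to -0.01 and that of Rpl10l to Rpl10 from 0.31 to 0.15, none of them past the test. The ratio depends on both probes, so it gives unequal change and not the change of either gene.

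Rpl36al and Rpl22l1 are paralogs of Rpl36a and Rpl22 that the name rule leaves out, and both fell on the percentile and quantile scales. Rpl36al levels were 4.18, 4.13, 4, 4.19 and 4.22 in CTR-NCD and 3.64, 3.77, 3.56, 3.76 and 3.66 in AR113Q-NCD. In HFD they were 4.18, 4.44, 4.02 and 4.29 in CTR and 3.61, 3.77, 3.68, 3.58 and 3.82 in AR113Q. No AR113Q array reached the lowest CTR array within its diet. The log2 fold change was -0.46 in NCD (SE 0.0777, adjusted p = 0.00048, limma) and -0.54 in HFD (SE 0.0824, adjusted p = 0.00021). Quantile normalization gave -0.39 and -0.43 (adjusted p = 0.00036 and 0.00031), and both were called again.

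Rpl22l1 levels were 5.40, 5.46, 5.21, 5.54 and 5.82 in CTR-NCD and 4.88, 4.85, 4.71, 4.96 and 4.87 in AR113Q-NCD. In HFD they were 5.08, 5.57, 5.20 and 5.55 in CTR and 4.88, 4.78, 4.68, 4.79 and 5.07 in AR113Q. The groups were again apart in both diets, narrowly so in HFD. The log2 fold change was -0.63 in NCD (SE 0.116, adjusted p = 0.001, limma) and -0.51 in HFD (SE 0.123, adjusted p = 0.0077). It was -0.54 and -0.39 after quantile normalization (adjusted p = 0.00068 and 0.011). With normexp background correction neither Rpl22l1 nor Rpl36al was called within a diet, and with the array median subtracted Rpl36al missed the threshold in NCD (-0.41, adjusted p = 0.076) and Rpl22l1 in HFD (-0.44, adjusted p = 0.14).

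Neither partner was called lower. Rpl36a was called higher as the average over diets, at 0.15 (adjusted p = 0.034, limma), and at 0.24 after quantile normalization (adjusted p = 0.00019). This rested on its brightest probe, as the other 2 gave 0.12 and -0.09 with the percentile (adjusted p = 0.079 and 0.22) and the mean over its probes gave 0.06 (adjusted p = 0.36). The call was also lost with the array median (adjusted p = 0.18) and with normexp (adjusted p = 0.22). Rpl22, an RNA-binding protein of the large subunit, was at 0.03 and -0.02 (adjusted p = 0.81 and 0.92). The log2 ratio of Rpl36al to Rpl36a changed by -0.60 in NCD and -0.71 in HFD, and that of Rpl22l1 to Rpl22 by -0.67 and -0.49. In each of these 4 comparisons the groups did not overlap (exact p = 0.00794, adjusted p = 0.0278, the smallest that these groups allow). Each of the 2 genes was lower in AR113Q on every slide, 5 in NCD and 4 in HFD, under both scalings.

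**Figure D4:**
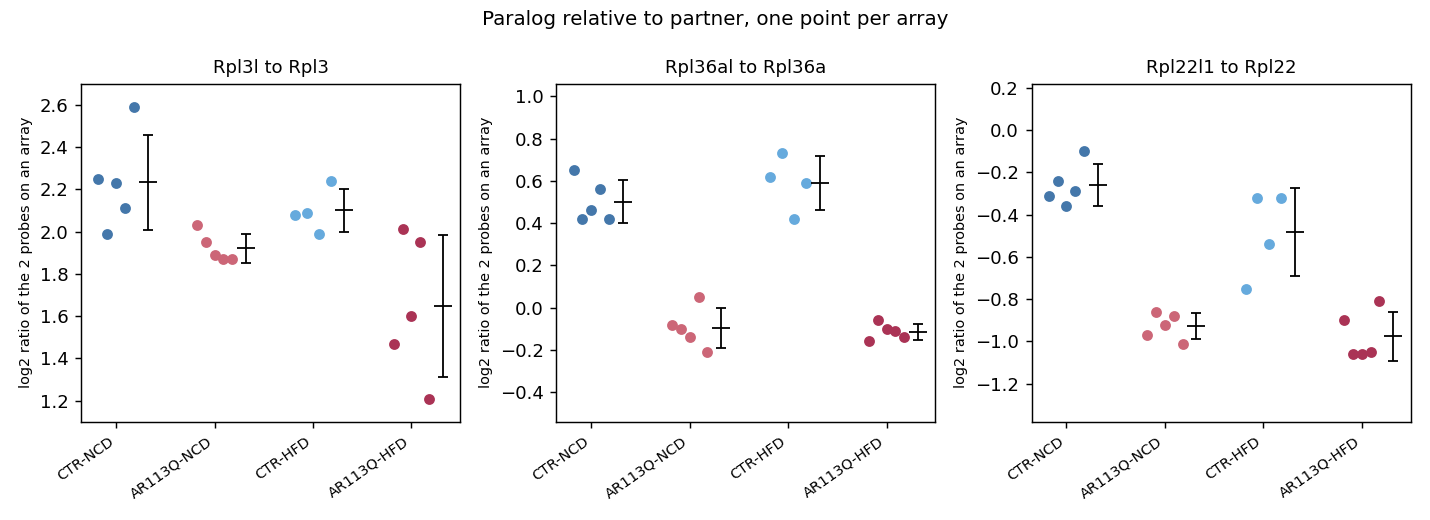
Log2 ratio of the paralog to its partner on each array for 3 pairs. Points are arrays of the 4 groups and bars are the mean ± SD. The Rpl36al to Rpl36a and Rpl22l1 to Rpl22 ratios are lower in AR113Q on both diets without overlap, and the Rpl3l to Rpl3 ratio falls to 1.21 on the lowest AR113Q-HFD array.

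The remaining paralogs gave no pattern common to both diets. Rpl39l was called higher in NCD, at 0.82 (SE 0.258, adjusted p = 0.037, limma), and was -0.24 in HFD (adjusted p = 0.62). Its levels were -4.05, -3.06, -3.69, -3.79 and -4.10 in CTR-NCD and -2.59, -2.01, -3.01, -3.46 and -3.55 in AR113Q-NCD, so the groups overlapped. The call was lost in 7 of 19 fits that left out 1 array, each of them an array of these 2 groups. The interaction of genotype and diet was called for no named gene. Its partner Rpl39 was 0.03 and -0.06 (adjusted p = 0.85 and 0.67), Rps27l was -0.14 and -0.11 (adjusted p = 0.32 and 0.48) beside -0.11 and -0.11 for Rps27, and Rpl7l1 was 0.08 and 0.15 (adjusted p = 0.66 and 0.39) beside 0.01 and -0.03 for Rpl7. The X-linked Rps4x was 0.01 and -0.03 (adjusted p = 0.95 and 0.81).

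In the small subunit Rps25, Rps26 and Rps13 were among the genes called within a diet. Rps26 lies at the channel through which the mRNA leaves the subunit, and Rps25 is known from internal initiation on viral mRNAs. Rps25 levels were 6.13, 6.13, 6.05, 6.20 and 6.37 in CTR-NCD and 5.93, 5.96, 5.87, 5.91 and 6.02 in AR113Q-NCD, without overlap. Its log2 fold change was -0.24 in NCD (SE 0.0636, adjusted p = 0.014, limma) and -0.16 in HFD (adjusted p = 0.12). After quantile normalization Rps25 was still called lower in NCD, at -0.15 (adjusted p = 0.048), and was 0.00 in HFD. By its brightest probe, no other member was called lower under both scalings within a diet. The NCD call on Rps25 was lost with the array median (-0.18, adjusted p = 0.48, limma) and with normexp (0.04, adjusted p = 0.83). It was also lost with the deposited series table (-0.08, adjusted p = 0.66) and the mean over its probes (-0.11, adjusted p = 0.48). With the 2 groups alone it missed the threshold (adjusted p = 0.051).

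Rps26 levels were 6.67, 6.67, 6.59, 6.70 and 6.95 in CTR-NCD and 6.46, 6.49, 6.37, 6.60 and 6.54 in AR113Q-NCD. In HFD they were 6.76, 6.73, 6.63 and 6.87 in CTR and 6.45, 6.60, 6.39, 6.43 and 6.58 in AR113Q. The HFD groups did not overlap and the NCD groups overlapped by 1 array. The log2 fold change was -0.22 in NCD (adjusted p = 0.047, limma) and -0.26 in HFD (adjusted p = 0.031), and after quantile normalization it was -0.10 and -0.04 (adjusted p = 0.25 and 0.73). Rps13 was -0.22 in HFD (adjusted p = 0.037, limma) and 0.01 after quantile normalization (adjusted p = 0.94). The HFD calls on Rps26 and Rps13 were lost in 6 and 5 of the 19 fits without 1 array, and the NCD call on Rps26 in 13.

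In the large subunit Rpl4 was -0.28 in HFD (adjusted p = 0.046, limma) and Rplp2 was -0.23 (adjusted p = 0.038), and neither was called after quantile normalization, at -0.17 and 0.02. Both calls lay near the threshold and were lost in 13 and 7 of 19 fits that each left out 1 array. Over these fits the log2 fold change was -0.35 to -0.23 for Rpl4 and -0.27 to -0.20 for Rplp2. Rplp2 belongs to the stalk that recruits elongation factors, together with Rplp0 and Rplp1. Rplp0 was -0.06 and -0.18 with the percentile (adjusted p = 0.65 and 0.11) but was called higher after quantile normalization, at 0.20 and 0.17 (adjusted p = 0.0065 and 0.025). Rplp1 was -0.05 and 0.00 with the percentile (adjusted p = 0.70 and 0.97) and was called in HFD after quantile normalization, at 0.21 (adjusted p = 0.0062). Dimmer probes of both genes differed from this. The second Rplp1 probe was called lower in HFD with the percentile, at -0.21 (adjusted p = 0.049, limma), and was 0.01 after quantile normalization (adjusted p = 0.90). The other 2 Rplp0 probes were not called in HFD after quantile normalization, at 0.04 and -0.03 (adjusted p = 0.73 and 0.79), nor in NCD, at 0.11 and 0.06 (adjusted p = 0.22 and 0.58).

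Relative to the median of the family, a small set of members stood apart. This removes a shift common to all members but not one that varies with brightness. Averaged over both diets, Rpl3, Rpl17, Rpl18, Rpl26, Rpl36a and Rps15 were among those called higher and Rpl10, Rplp2, Rps20, Rps25 and Rps26 among those called lower. The named members called higher were dimmer, with CTR-NCD means from 3.64 (Rpl36a) to 6.05 (Rps15). Those named as lower had means from 6.18 (Rps25) to 7.85 (Rpl10). The part of brightness in these calls was not tested, and the share of all genes called on this scale is not given. Under both scalings of whole arrays, the brightest probe of Rpl10 was called lower and those of Rpl3 and Rpl36a higher in that average. Of the 15 members lower on the percentile scale, 13 were not called in either direction after quantile normalization. Rps20 had an average of -0.21 (adjusted p = 0.0061, limma) on the percentile scale and 0.02 (adjusted p = 0.79) after quantile normalization.

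Rps6, the S6 kinase substrate, did not pass the test with the percentile scaling, at -0.03 in NCD and -0.02 in HFD (adjusted p = 0.83 and 0.88, limma). After quantile normalization it was 0.08 and 0.18, the latter called (adjusted p = 0.35 and 0.040). These arrays measure its transcript and not its phosphorylation. Rps18, Rpl32 and Rpl13a often serve as reference transcripts in real-time PCR. Rps18 was -0.04 and -0.07 and Rpl32 -0.08 and -0.13, none called under either scaling. Rps27a, which is made as a fusion with ubiquitin, was -0.28 and -0.16 (adjusted p = 0.10 and 0.43).

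Probes of a gene did not always give the same answer. Of the 78 genes, 59 had several tested probes, and in 20 of these the probes lay on both sides of 0 in the averaged genotype comparison. In 26 genes the probes differed by more than 2 log2 units in signal. The brightest Rpl13a probe gave -0.02 in NCD and -0.01 in HFD (adjusted p = 0.89 and 0.97, limma), while its 2 dimmer probes were called higher, at 0.24 and 0.23 in NCD and 0.40 and 0.37 in HFD. The brightest probes of Rps27 and Rps29 are placed on chromosomes 9 and 2, where RefSeq has the genes on 3 and 12. Ribosomal protein genes have many processed copies in the genome, and signal from such copies cannot be told apart from that of the gene, so values for single members are uncertain to that extent.

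The high-fat diet itself gave no called member. In AR113Q-HFD against AR113Q-NCD no member was called and 1 had an unadjusted p under 0.05 (limma), where 0.0202% of all genes were called. In CTR-HFD against CTR-NCD no member was called and 1 had an unadjusted p under 0.05, with 0% of all genes called, and the same numbers held for the interaction of genotype and diet. After quantile normalization none was called either, with 5, 2 and 4 members at an unadjusted p under 0.05, against a background of 0.0243%, 0% and 0%. With the percentile the median log2 fold change of the members was 0.04 for the diet in each genotype. After quantile normalization it was 0.07 for the diet in AR113Q and 0 in CTR. In AR113Q-HFD against CTR-NCD, Rpl3 was called higher and Rpl10, Rpl3l and Rps26 lower, against 10.3% and 10.8% of all genes, and quantile normalization gave 31 higher and none lower, against 13.1% and 9.62%. This comparison shares its CTR-NCD arrays with the NCD genotype comparison and its AR113Q-HFD arrays with the HFD comparison.

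Arrays were run on 5 slides that each held several groups. With slide as a term in the fit, 10 members were called in NCD (2 higher, 8 lower), 13 in HFD (1 higher, 12 lower) and 29 in the average (3 higher, 26 lower), with medians of -0.04, -0.06 and -0.05. The replicate number of the labels equalled the slide on 18 of the 19 arrays, and with that number as a block 7 members were called in NCD (1 higher, 6 lower), 19 in HFD (all lower) and 29 in the average (2 higher, 27 lower). The share of all genes called in the fits with a slide or replicate term is not given. These counts therefore cannot be read as a result about the family. Within slides the median member was lower in AR113Q on 5 of 5 slides in NCD and on 2 of 4 in HFD, and after quantile normalization on 1 of 5 and 0 of 4.

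Of the proteins that the name rule leaves out, 7 were tested, among them Rpl36al, Rpl22l1, Rpl7l1, Rpsa, Fau and Rack1 (listed under its older name Gnb2l1). None was called higher, and 2 were called lower in NCD and 3 in HFD with the percentile. Of all genes, 9.04% and 10.2% were called lower. Rack1 was -0.13 and -0.15 (adjusted p = 0.17 and 0.13, limma).

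Genes that build ribosomes were called mostly lower in HFD. Of 58 ribosome biogenesis genes tested, 4 were called higher and 6 lower in NCD, and 1 higher and 18 lower in HFD, with medians of -0.06 and -0.17. Quantile normalization gave 4 and 5, then 2 and 15, with medians of -0.05 and -0.10. Of all genes, 8.31% were called higher and 9.04% lower in NCD, and 7.74% and 10.2% in HFD, with the percentile. After quantile normalization the shares of all genes were 10.1% and 8.24%, then 10.3% and 7.97%. The NCD counts of the list were close to these shares. Nle1, an assembly factor of the large subunit, had log2 changes of -0.97 and -0.83, both called (adjusted p = 1e-05 and 7e-05, limma). Gnl3, a nucleolar GTPase, was at -0.51 and -0.74 (adjusted p = 8.5e-05 and 5.9e-06). Ncl (nucleolin) rose by 0.32 and 0.45 (adjusted p = 0.002 and 0.00023). These 3 were called with the same sign after quantile normalization.

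Of 47 translation factors, 4 were called higher and 11 lower in NCD, against 8.31% and 9.04% of all genes. In HFD 5 were called higher and 8 lower, against 7.74% and 10.2%. After quantile normalization the counts were 10 and 8, then 8 and 5, against 10.1% and 8.24%, then 10.3% and 7.97%. Eif3d, an initiation factor subunit, rose by 0.43 and 0.42 (adjusted p = 0.00047 and 0.00084, limma). Pabpc4, a poly(A)-binding protein, was lower, at -0.55 and -0.41 (adjusted p = 0.00019 and 0.0029), and Eif6, which keeps the large subunit from joining too early, was at -0.34 in NCD (adjusted p = 0.0037). In HFD Eif2s2, a subunit of the factor that brings the initiator tRNA, was at -0.52 (adjusted p = 0.0032). Each of these kept its call after quantile normalization.

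Of 37 genes of the mTOR and S6 kinase pathway, 6 were called higher and 7 lower in NCD, against 8.31% and 9.04% of all genes. In HFD 5 were called higher and 8 lower, against 7.74% and 10.2%. After quantile normalization the counts were 6 and 7, then 6 and 3, against 10.1% and 8.24%, then 10.3% and 7.97%. Sesn3, a sestrin that restrains mTORC1, rose by 0.79 and 0.87 (adjusted p = 7.4e-05 and 5.1e-05, limma), and Sesn1, its paralog, by 0.55 in NCD (adjusted p = 0.00095). Ddit4l, another inhibitor of the pathway, was at -1.35 in HFD (adjusted p = 0.0014). Mapkap1, a subunit of mTORC2, was at -0.33 in NCD (adjusted p = 0.0014), and Poldip3, an S6 kinase target, rose by 0.30 in HFD (adjusted p = 0.0031). Calls on a list are set beside the background shares given above for each comparison.

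The arrays carried the markers of skeletal muscle, and their mean level per array was between 7.73 and 8.45. Of 12 such markers, 8 were called lower and none higher in NCD and 9 lower and 1 higher in HFD with the percentile. After quantile normalization 3 were called lower in each diet. Of all genes, 9.04% were called lower and 8.31% higher in NCD, and 10.2% and 7.74% in HFD, with the percentile. After quantile normalization 8.24% of all genes were called lower in NCD and 7.97% in HFD. Ckm (muscle creatine kinase) was at -0.70 and -0.72 (adjusted p = 9e-06 and 1.4e-05, limma) and Actn3, of fast fibers, at -0.82 and -0.77 (adjusted p = 2.4e-05 and 7.1e-05). Of 10 slow fiber markers, Casq2 alone was called within a diet with the percentile. It rose by 2.01 in NCD (adjusted p = 0.0041, limma) and was also called higher in HFD (adjusted p = 0.0061). The next by p-value were Atp2a2 in NCD (1.66, adjusted p = 0.063) and Myoz2 in HFD (1.32, adjusted p = 0.32). On NCD the mean level of the slow fiber list ran from -0.10 to 3.61 in CTR and from 3.58 to 4.67 in AR113Q, and on HFD from -1.51 to 3.94 and from -0.07 to 3.48. Of 7 adipocyte, 10 macrophage and 7 red blood cell markers, none was called within a diet with the percentile. Of 7 endothelial, 8 fibroblast, 8 lymphocyte and 8 Schwann cell markers, at most 1 of a list was called within a diet with the percentile. Among 5 satellite cell markers, 1 was higher in NCD and 3 in HFD, Myog by 0.82 and 0.70 (adjusted p = 0.0084 and 0.029). The part of these marker differences in the ribosomal protein results was not tested.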

How the data were processed

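The authors hybridised total RNA of 19 quadriceps samples to Agilent arrays labelled with Cy3, and, per the labels, scanner images were read with Agilent Feature Extraction 10.7.3.1. The deposited scanner values are processed intensity on a linear scale, from which a background surface fitted across the array was already subtracted (on 100% of spots, within 0.1%). The deposited series table holds log2 values with 25944 entries and column medians of 7.59 to 7.65. All 19 of its columns matched their own scanner file best, its normalization is not given in the sources used here, and it was used only as an alternative.

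Control spots were left out and spots of a probe averaged. Log2 intensity minus the 75th percentile of each array was the primary scale, with quantile normalization beside it. Probes well above background in at least 0.5 of their spots on 4 of 19 arrays were tested with limma 3.58.1 (R 4.3.3) in a model of 4 groups, with Benjamini-Hochberg adjustment. Each gene was represented by its tested probe with the highest mean. Array totals do not give a depth, and the number of arrays limits the precision. Correlations between arrays were 0.972 to 0.993 and none were duplicates. The fit was tested on simulated data with known changes. Named with values were the paralogs and partners, Rps6, the stalk proteins, reference transcripts, Rps27a, up to 5 members with the largest called rise and fall per comparison, the members most and least like the family, and the 3 genes with the smallest adjusted p in each list. Members singled out outside this rule (Rpl17, Rpl18, Rpl26, Rps15, Rps21, Rps29) were named after their values were seen. Results on some genes are not reported here, though these genes stay in the counts and medians. The members and gene lists were chosen with earlier results of these data known. Alternatives were the array median, normexp, the series table, other filters, slide or replicate terms, array weights, each array left out, and the ratio of paralog to partner, which was chosen after seeing the data.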

Additional observations from a re-analysis of the deposited data

Results flagged for a closer look

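Among 120 groups of values for named genes, 4 held an array far from the others of its group. Rpl3l was 6.69 on CTR-NCD replicate 5, where the other arrays lay between 6.45 and 6.52. Rps26 was 6.95 on the same array, against 6.59 to 6.70. Rps18 was 6.02 on AR113Q-HFD replicate 5, against 5.82 to 5.87, and Rpl4 was 3.86 on AR113Q-NCD replicate 2, against 3.59 to 3.62. Chance gives about 1 such value in 20 groups.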

How the results depend on the processing

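Calls among members ranged over the alternatives. In AR113Q-NCD against CTR-NCD (5 as reported) they were 14 with quantile normalization, 9 with the series table, 0 with the array median and with normexp, 3 with no filter, 10 with a slide term, 1 with the 2 groups alone, 1 with a fold of at least 1.5 or at most 0.6, and 1 at an adjusted p under 0.01. In AR113Q-HFD against CTR-HFD (5) they were 31, 25, 0, 0, 2, 13, 1, 0 and 1 in that order, 8 with every array above background, 8 with limma-trend. In AR113Q-HFD against CTR-NCD (4) they were 31, 28, 0 and 0, then 11 with slide, 7 with limma-trend, 2 with the 2 groups alone, 0 with the fold and 2 at 0.01. In the average over diets (17) they were 41, 37, 1, 0, 29, 0 and 6 for quantile, series table, median, normexp, slide, fold and 0.01. Replicate numbers equalled the slide on 18 of 19 arrays. Of same-number pairs of arrays 19 of 27 had a correlation of deviations over 0.1 (mean 0.22), against 27 of 108 pairs with different numbers (mean -0.06), and 14 of 19 arrays correlated best with their own number. With the replicate block the counts were 7, 19, 11 and 29. Shares of all genes called are given only for the percentile and quantile scalings, so the counts under other alternatives have no background beside them. Leaving out 1 array gave 2 to 5, 1 to 8, 2 to 7 and 12 to 21 calls, and 0 to 0 for the diets and the interaction. The median log2 fold change moved to 0.08, 0.14, 0.15 and 0.12 with quantile and with the series table, and to 0.25, 0.36 and 0.08 with normexp in NCD, AR113Q-HFD against CTR-NCD and the average, to 0.44 for the diet in CTR and to -0.34 for the interaction. Normexp also moved the median of all genes, to -0.51 in NCD, -0.03 in HFD and -0.60 in AR113Q-HFD against CTR-NCD. Leaving out 1 array gave medians of -0.08 to -0.02, -0.09 to -0.04, -0.04 to 0.01 and -0.06 to -0.04, 0.01 to 0.06 and 0.01 to 0.08 for the diet in AR113Q and CTR, and -0.05 to 0.02 for the interaction.

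Signs turned, always on the log2 scale. With quantile normalization the average turned to 0.13 for Rpl7, Rps4x and Rps6, 0.18 for Rplp0, 0.15 for Rplp1, 0.03 for Rplp2, 0.01 for Rps13 and 0.02 for Rps20. In HFD it gave 0.16 for Rpl7, 0.18 for Rps6, 0.17 for Rplp0, 0.21 for Rplp1, 0.02 for Rplp2 and 0.01 for Rps13, and in NCD 0.20 for Rplp0. With the series table the average was 0.01 for Rpl3l, 0.14 for Rpl7, 0.12 for Rps4x, 0.15 for Rps6 and Rplp1, 0.28 for Rpl13a, 0.06 for Rps25, 0.01 for Rps13, 0.13 for Rps20 and 0.13 for Rpl6, in HFD 0.20 for Rps6, 0.23 for Rplp1, 0.34 for Rpl13a and 0.01 for Rps13, and in NCD 0.22 for Rpl13a. It holds 49 of the 78 brightest probes, and other probes stood in for the rest. With normexp, NCD gave -0.32 for Rpl39l, 0.04 for Rps25 and 0.06 for Rps26, and AR113Q-HFD against CTR-NCD 0.11 for Rpl3l, 0.04 for Rpl10 and 0.15 for Rps26. The mean over probes gave 0.26 in HFD and 0.20 on average for Rpl13a. The cause was not tested. On the percentile scale, calls on Rpl10, Rpl36al and Rpl22l1 were kept in all 19 fits without 1 array, as were the NCD call on Rps25 and the averaged call on Rpl3l. Those on Rpl10 within a diet were nonetheless lost with quantile normalization, the array median, normexp and the series table. Weak signals limit Rpl10l and Rpl39l.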
